A study of Mus musculus with 4 samples.

Results

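The deposited annotation of the murine epididymis and vas deferens divides the clear cells into 3 subclusters, of 54, 216 and 78 cells. The subject here is the smallest, a low-UMI subcluster whose name in the annotation carries the basal cell keratin gene *Krt14*, and its members are the 54 cells that carry this name, of 8880 cells in all and 348 clear cells. The larger subclusters are called clear 3 (216 cells) and clear 2 (78 cells, the *Iapp*-positive subset). The 315 basal cells annotated as low in UMIs and the 917 main basal cells served as further references. The cells came from the caput, corpus and cauda epididymis and the vas deferens of 4 untreated FVB/NJ males aged 10 to 12 weeks, with no transgene or other allele in any group. The 8 pieces of each region were pooled and dissociated, and 1 droplet library (10x, 3′ ends of transcripts) was made per region. Each region therefore has 1 sample. No test between regions or between populations was run, and all intervals are exact 95% intervals that cover the counting error of UMIs and not the variation between animals. The subclusters were drawn by the authors from the same counts, so that a difference between them is a description.

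Clear cells are the proton-secreting cells of the epididymal epithelium. They acidify the lumen with the vacuolar H+-ATPase (V-ATPase), a pump built from a sector in the membrane and a sector in the cytosol, and several of its subunits come in isoforms that are mostly found in such specialized cells. Basal cells lie at the foot of the same epithelium, carry keratins 5 and 14, and do not express these isoforms at appreciable levels.

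The subcluster did not hold a single kind of cell, and its members divided by library. In the 41 members from the caput, corpus and cauda (the epididymal members), genes of clear cells were present and genes of basal cells were nearly absent. In the 13 members from the vas deferens (the vas members) it was the reverse. This was measured with a set of 36 genes that were at least 20 times higher in clear 3 and clear 2 than in both basal populations and a set of 22 genes that were at least 20 times higher the other way, both drawn without the 54 cells. The clear set includes *Atp6v1g3*, *Foxi1*, *Cd24a*, *Slc26a3* and *Iapp*, and the basal set *Krt5*, *Krt14*, *Krt15*, *Apoe*, *Lcn2* and *Mia*. The Caput members held 79 UMIs of the clear set and 3 of the basal set, the Corpus members 626 and 14, the Cauda members 373 and 31, and the Vas members 9 and 437. As shares of all UMIs, the clear set took 3.17% in the epididymal members and 0.0935% in the vas members, and the basal set 0.141% and 4.54%.

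The division held in most cells taken singly. Each of the 13 vas members had more basal-set than clear-set UMIs, with 11 to 54 of the basal set (median 29) and 0 to 4 of the clear set. Of the 41 epididymal members, 37 had more clear-set UMIs, 0 had more basal-set UMIs, and 4 (2 from the caput and 2 from the corpus) had no UMI of either set. Their clear-set UMIs ranged from 0 to 115 (median 22) and their basal-set UMIs from 0 to 13. Some of the 37 rested on few UMIs. A Corpus member with 1 clear-set UMI had 3 UMIs of the immune genes counted below. Another with 2 had 14 of the principal cell genes. The placing of such cells is uncertain. In the 25 clear 3 cells of the vas deferens, 20 had more clear-set and 3 more basal-set UMIs, with the sets at 1.79% and 0.161% of UMIs. In the 43 low-UMI basal cells of the vas deferens the sets stood at 0.0505% and 8.04%. The data therefore go against the label for the 13 vas members, whose clear cell genes are nearly absent, and the subcluster is not described as one cell type. Values are therefore given for the epididymal and the vas members as well as for all 54 cells.

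**Figure D1:**
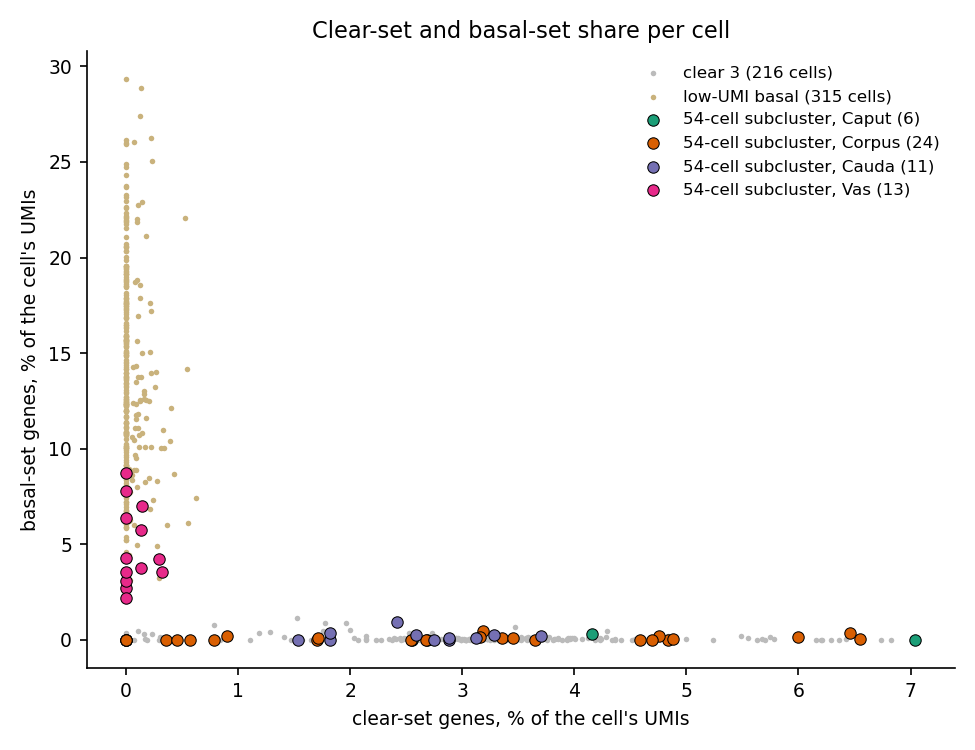
Share of each cell's UMIs in the 36 genes of the clear set (horizontal axis, %) and the 22 genes of the basal set (vertical axis, %), 1 point per cell, for the 54 members colored by library and for clear 3 and low-UMI basal cells. The 13 vas members lie along the vertical axis at the lower end of the low-UMI basal cells, and the 41 epididymal members lie along the horizontal axis among clear 3.

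The likeness of whole profiles divided in the same way. Over 2079 genes, on the scale log2(UPM + 50), where UPM is UMIs per 1000000 UMIs of a group, the 41 epididymal members were closest to clear 3 (Pearson r = 0.671) and clear 2 (0.625), with 0.464 for the next population, a principal cell cluster. The 13 vas members were closest to the low-UMI basal cells of the same library (r = 0.735), the main basal cells (0.710) and the *Notch2* basal cells (0.699), with 0.401 for clear 3. Pooled, the 54 cells were about as close to clear 3 (0.674) as to the low-UMI basal cells (0.662). These correlations are across genes, which share libraries and are not independent, and they are given as a description.

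The genes given as markers of the subcluster, which were chosen on these cells, mostly marked its vas members. *Mia* (chr7:27179741-27181149 in mm10), which encodes a small secreted protein, had 0 UMIs in the Caput members, 2 in Corpus, 0 in Cauda and 49 in Vas. *Lcn2* (chr2:32384637-32387739), which encodes a lipocalin that binds iron-loaded siderophores, had 3, 1, 4 and 46 UMIs in the same order. *Krt14* (chr11:100203162-100207510), the type I keratin of basal layers, had 0, 0, 1 and 23. *Mia* and *Krt14* had 0 to 2 UMIs in each epididymal library, whereas the 3 UMIs of *Lcn2* in the small total of Caput stand at 1226 UPM, against 4779 UPM in Vas.

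The remaining pair of markers was found on both sides. *Bcam* (chr7:19756138-19770532), an adhesion molecule that binds laminin, had 1, 7, 2 and 6 UMIs from Caput to Vas. In the epididymal members it reached 294 UPM, against 28.5 UPM in clear 3 of the same libraries (ratio 10.3, interval 4.46 to 22.0). *Cp* (chr3:19956933-20009750), which encodes the copper ferroxidase ceruloplasmin, had 0, 1, 13 and 15 UMIs, at 411 UPM in the epididymal members and 42.2 UPM in clear 3 (ratio 9.75, 4.90 to 18.3). Its epididymal UMIs were almost all from the cauda. Together the 4 markers stood 23.2 times higher in the 54 cells than in clear 3 (18.5 to 29.2), and 6.92 times higher in the epididymal members alone (4.60 to 10.1).

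**Figure D2:**
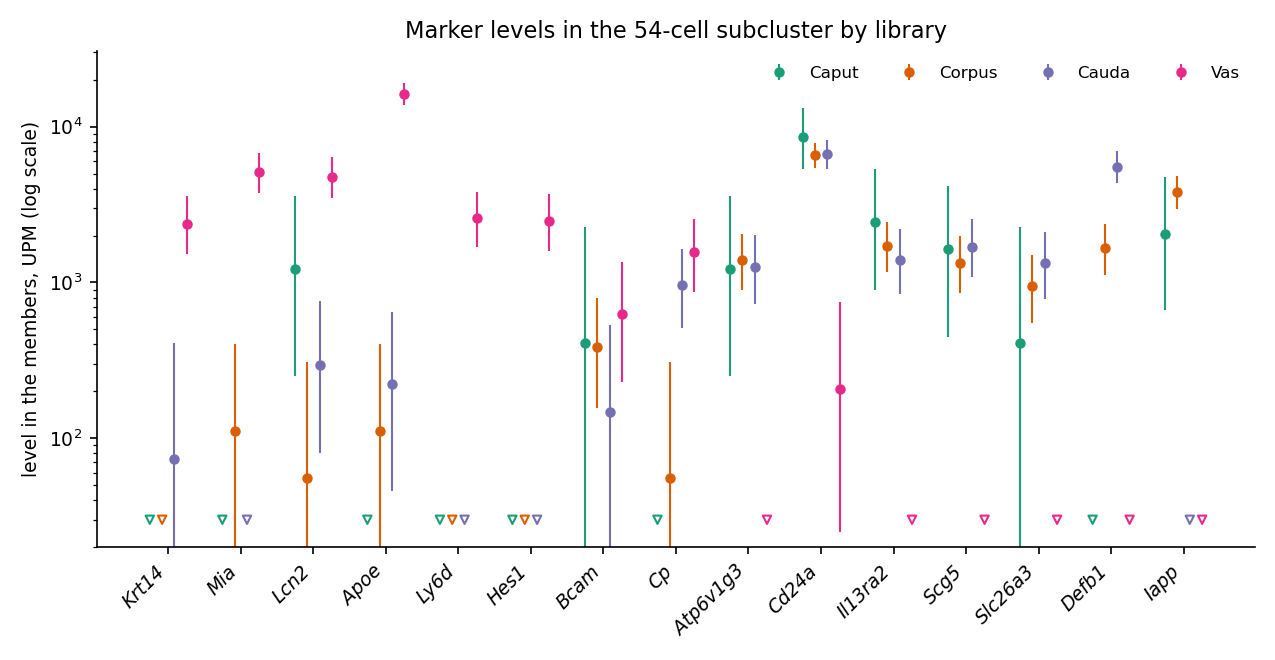
Levels of 15 genes in the members of each library, in UPM on a log axis, with exact 95% Poisson intervals. Open triangles mark 0 UMIs, and intervals that reach the lower edge run on below it. *Krt14*, *Mia*, *Apoe*, *Ly6d* and *Hes1* stand high in Vas alone, *Atp6v1g3*, *Il13ra2*, *Scg5* and *Slc26a3* are at 0 in Vas, and *Bcam* and *Cp* are found on both sides.

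All 54 cells were shallow. Their UMIs per cell ranged from 220 to 1875 with a median of 698.5, for 43659 UMIs in all, of which 2447 came from Caput, 18044 from Corpus, 13542 from Cauda and 9626 from Vas. The medians by library were 279, 632.5, 1152 and 746. The median was 5327.5 in clear 3, 4544.5 in clear 2, 900 in the low-UMI basal cells and 5654 in the main basal cells. The authors' correction for ambient RNA had taken 85 to 149 UMIs from each of the 54 cells, which is 12.4% of their UMIs. In clear 3 it had taken a like number per cell (median 114, against 117 in the 54 cells), which was 2.23%. The part of this correction in the values of the 54 cells was not tested.

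By library, the members made up 6 of 73 clear cells in the caput (8.22%, 3.08 to 17.0), 24 of 132 in the corpus (18.2%, 12.0 to 25.8), 11 of 105 in the cauda (10.5%, 5.35 to 18.0) and 13 of 38 in the vas deferens (34.2%, 19.6 to 51.4). The share was highest in the vas deferens, the library in which the members carry basal genes, and its interval overlaps that of the corpus. No test of these shares was run, since each region is 1 library.

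Ribosomal protein genes took a small share of the UMIs. The share was 2.81% in the 54 cells (3.88% in Caput, 3.24% in Corpus, 1.10% in Cauda and 4.13% in Vas), against 15.5% in clear 3, 14.5% in clear 2, 7.04% in the low-UMI basal cells and 24.8% in the main basal cells. Among cells below 1500 UMIs the values were 3.07% in 48 members, 7.96% in 58 clear 3 cells and 4.95% in 31 clear 2 cells, so that clear cells of like depth in the other subclusters held more. Without the vas deferens the values were 2.64% in 35 members and 7.90% in 53 clear 3 cells. Clear 3 cells below that limit had a median of 518.5 UMIs, lower than the 634.5 of the members. Nuclear genes for mitochondrial proteins, which supply respiration, took 1.58% of UMIs in the 54 cells and 5.14% in clear 3.

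**Figure D3:**
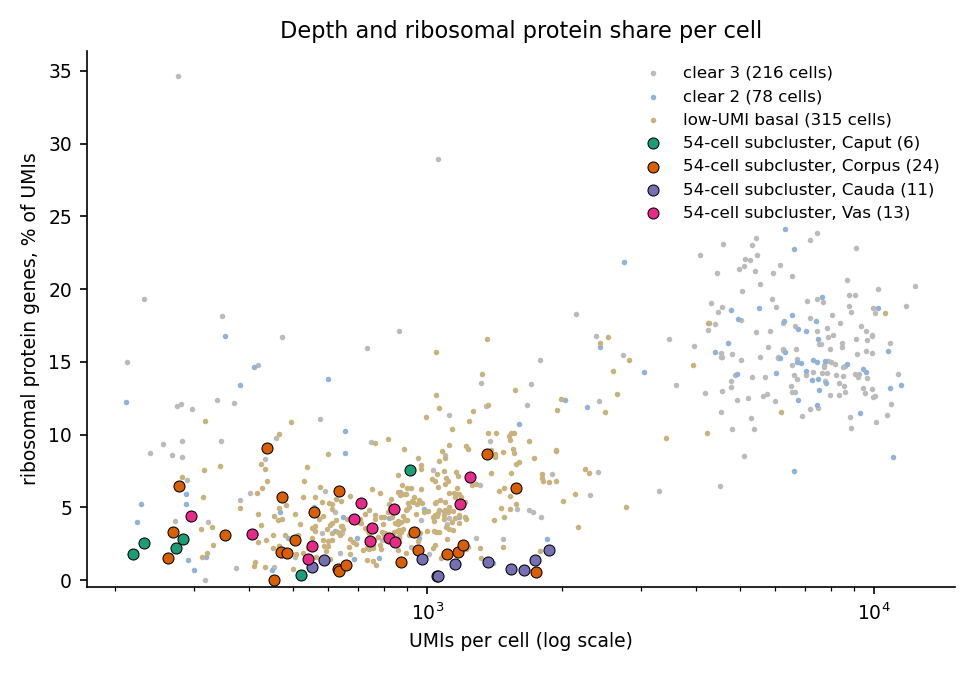
UMIs per cell (log axis) and the share of a cell's UMIs in ribosomal protein genes (%), 1 point per cell, for the 54 members colored by library, clear 3, clear 2 and low-UMI basal cells. The members lie between 220 and 1875 UMIs and at or below 9.11%, overlapping the low-UMI basal cells, which start at 283 UMIs and 0.792%, and mostly below clear 3 cells of like depth.

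V-ATPase isoforms and basal keratins were hardly ever found in the same cell. After each cell was thinned to 500 UMIs, which left out 15 of the 54, 1 of 39 cells (2.56%, 0.0649 to 13.5) had UMIs of both the 5 isoform genes (*Atp6v1b1*, *Atp6v1c2*, *Atp6v1g3*, *Atp6v0a4*, *Atp6v0d2*) and the 3 keratins (*Krt5*, *Krt14*, *Krt15*). Isoforms alone were found in 16 cells, keratins alone in 9, and neither in 13. By source, 60.7% of 28 epididymal members had an isoform UMI and 3.57% a keratin UMI, while of 11 vas members 0 had an isoform UMI (0%, where 3 cells, or 27.3%, is the limit used for a count of 0) and 90.9% a keratin UMI. The shares were 83.5% and 1.60% in clear 3, 1.79% and 66.8% in the low-UMI basal cells, and 0% (up to 1.66%) and 1.10% in 181 immune cells, which should lack both. The immune cells had a median depth before thinning of 3090 UMIs, against 915 in the members used. Without thinning, 1 of the 54 had both, 25 an isoform, 12 a keratin and 16 neither.

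The V-ATPase itself was represented unevenly in the epididymal members. The 5 isoform genes stood at 2861 UPM in Caput, 1940 in Corpus and 2215 in Cauda (7, 35 and 30 UMIs), and in the vas members at 0 of 9626 UMIs, which allows up to 312 UPM. Clear 3 held them at 8654, 8753 and 8557 UPM in the epididymal libraries and at 4480 UPM in the vas deferens. The ratio to clear 3 was 0.245 in the epididymal members (0.192 to 0.309) and 0.204 over all 54 cells (0.159 to 0.257). *Atp6v1g3* (chr1:138273738-138289462), the G subunit isoform of proton-secreting cells, held 45 of these 72 UMIs, at 1322 UPM in the epididymal members against 7474 in clear 3 (ratio 0.177, 0.129 to 0.237). The 16 subunits common to many cells stood close to clear 3 in the same members (ratio 1.06, 0.955 to 1.18).

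By sector, the 8 genes for membrane-spanning and accessory subunits stood at 8521 UPM in the epididymal members and 5632 in clear 3 (ratio 1.51, 1.34 to 1.70, and 1.32, 1.15 to 1.51, without *Atp6ap2*), with 6947, 7482 and 10190 UPM in Caput, Corpus and Cauda. The 11 genes of the cytosolic sector stood at 3937 and 12511 UPM (ratio 0.315, 0.263 to 0.373), and without *Atp6v1g3* at 2615 and 5037 UPM (ratio 0.519, 0.416 to 0.640). In each of the 3 epididymal libraries the membrane list was above, and the cytosolic list below, its level in clear 3 of that library. *Atp6ap2*, the accessory protein also known as the prorenin receptor, had a ratio of 4.15 (3.05 to 5.53), *Atp6v0b* of 1.98 (1.41 to 2.72) and *Atp6v0e* of 1.59 (1.26 to 1.98), whereas *Atp6v0c*, the proteolipid of the rotor, was at 0.95 (0.756 to 1.18). In the cytosolic sector *Atp6v1a*, a catalytic subunit, was at 0.652 (0.416 to 0.975), *Atp6v1e1* at 0.655 (0.408 to 0.998) and *Atp6v1f* at 0.313 (0.149 to 0.578). *Atp6v1g1*, the widespread G subunit, had 0 UMIs, which allows up to 88.1 UPM, where clear 3 had 736 UPM. *Atp6v0d2*, a membrane-sector subunit that does not span the membrane and was placed in neither list, was at 0.681 (0.360 to 1.17). Among epididymal cells below 1500 UMIs, the membrane list stood at 7616 UPM in 35 members and 3944 in 53 clear 3 cells, and the cytosolic list at 3975 and 7350. In the same comparison, genes whose product is made on the endoplasmic reticulum had a median ratio of 2.65 and other genes 0.584. In low-UMI over main basal cells, log2 ratios were 2.22, 1.34, 0.424 and 0.288 for *Atp6ap2*, *Atp6v0b*, *Atp6v0c* and *Atp6v0e*. They were -0.353, -0.826 and -1.05 for *Atp6v1a*, *Atp6v1f* and *Atp6v1g1*, but 0.36 and 1.16 for *Atp6v1e1* and *Atp6v1g3*. The split is thus not shown to be particular to the V-ATPase or to these members.

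**Figure D4:**
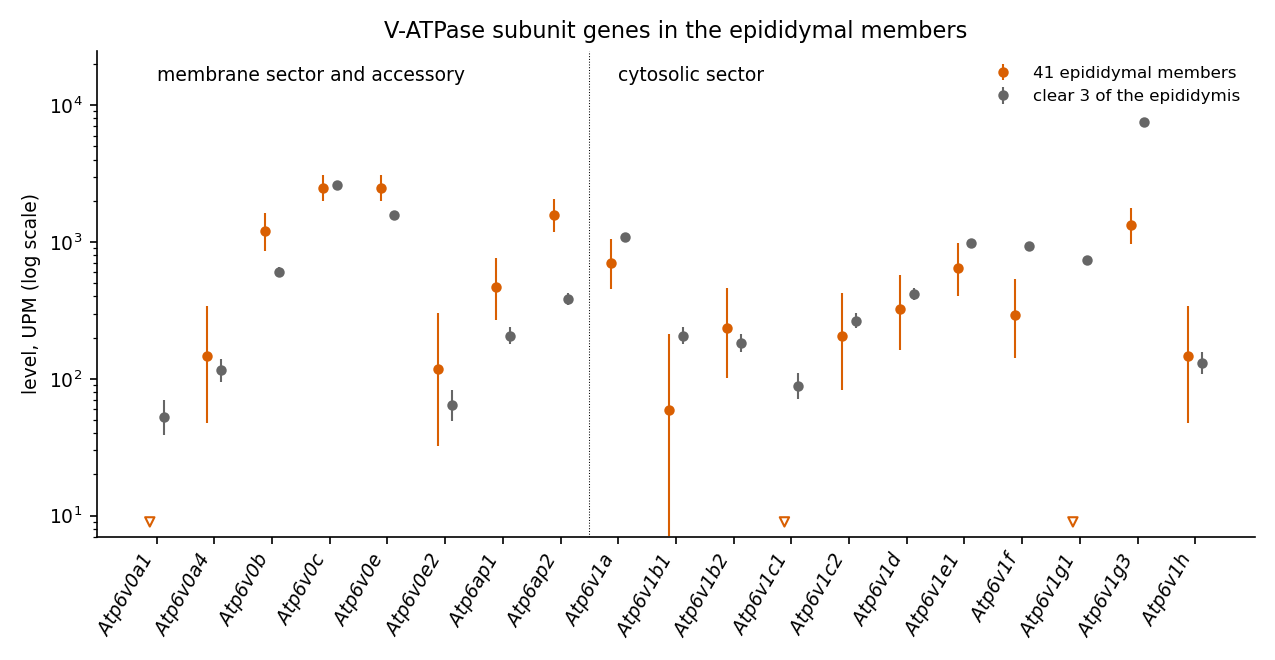
Levels of 8 membrane-spanning or accessory and 11 cytosolic V-ATPase subunit genes in the 41 epididymal members and in clear 3 of the same 3 libraries, in UPM on a log axis with exact 95% Poisson intervals. Open triangles mark 0 UMIs, and the interval that reaches the lower edge runs on below it. *Atp6ap2*, *Atp6v0b* and *Atp6v0e* are higher in the members, and *Atp6v1g3*, *Atp6v1f* and *Atp6v1g1* are lower.

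The 36 genes of the clear set were unevenly placed in the epididymal members, with 19 above and 17 below clear 3 of the same libraries and their sum at 0.911 of it (0.857 to 0.969). Of the 21 that passed the minimum of 20 observed or expected UMIs, 13 were above. *Vsig1*, *Pla2r1* and *Gm933* were more than 4 times higher and *Chchd10* and *Atp6v1g3* more than 4 times lower. *Cd24a*, a surface glycoprotein, had 21, 118, 90 and 2 UMIs from Caput to Vas, and the epididymal members were near clear 3 (6729 and 7817 UPM, ratio 0.861, 0.751 to 0.982). *Il13ra2*, a decoy receptor for interleukin 13, had 6, 31, 19 and 0 UMIs and was 3.08 times the level of clear 3 in the epididymal members (2.29 to 4.06). *Scg5*, a chaperone of the secretory pathway, had 4, 24, 23 and 0 UMIs and a ratio of 3.40 (2.49 to 4.56). *Slc26a3*, a chloride-bicarbonate exchanger, had 1, 17, 18 and 0 UMIs and a ratio of 2.32 (1.60 to 3.26). None of these last 3 had a UMI in a vas member.

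Other genes of the set were lower. *Ldhb*, a subunit of lactate dehydrogenase, had a ratio of 0.354 (0.216 to 0.549), and *Stap1*, a signaling adaptor, of 0.385 (0.227 to 0.611). *Foxi1* (chr11:34204341-34208089), which drives V-ATPase isoform genes in proton-secreting cells, had 0, 6, 2 and 0 UMIs, at a ratio of 0.319 in the epididymal members (0.137 to 0.633). *Car2*, the cytosolic carbonic anhydrase, had 1 UMI in the 54 cells. A list of 13 further clear cell genes holds *Foxi1* and *Car2*. It also holds *Dmxl1*, *Dab2*, *Ap1s3*, *Arf3*, *Stx7* and *Cdc42se2*, which the authors name for clear cells from these same data. The list summed to 3203 UPM in the epididymal members (ratio 0.700, 0.573 to 0.846) and 727 UPM in the vas members (7 UMIs).

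The 20 genes with most UMIs in the 54 cells were *B2m*, *H2-D1*, *H2-K1*, *Itm2b*, *Ly6e*, *Ctsl*, *Hspa5*, *Cd24a*, *Sepp1*, *Aplp2*, *Apoe*, *App*, *Epcam*, *Cst3*, *Pgrmc1*, *H3f3b*, *Ctsd*, *Cldn4*, *Jun* and *Sdc4*, from 809 UMIs down to 132. MHC class I transcripts, which every nucleated cell uses to present peptides, held the first 3 places. *B2m*, the light chain, had 24, 320, 247 and 218 UMIs from Caput to Vas, *H2-D1* (chr17:35263094-35267497) 23, 270, 233 and 272, and *H2-K1* (chr17:33996012-34000619) 14, 175, 138 and 81. Summed, they stood at 24928, 42396, 45636 and 59318 UPM by library, against 6387, 8880, 9901 and 6919 in clear 3, with every library of the members above every library of clear 3. The epididymal members were 4.63 times clear 3 (4.38 to 4.90) and 2.64 times the epididymal low-UMI basal cells (2.49 to 2.80). The vas members were 1.85 times the low-UMI basal cells of the vas deferens (1.68 to 2.05). Among epididymal cells below 1500 UMIs the level was 38706 UPM in the members, 9676 in clear 3 and 16891 in the low-UMI basal cells. *H2-D1* and *H2-K1* are close paralogs whose alleles differ between mouse strains, and the authors left out reads with several possible origins, so the values of each are uncertain. *B2m* alone had a ratio of 3.91 to clear 3 in the epididymal members (3.58 to 4.26).

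Across all genes, the epididymal members were compared with epididymal clear 3 by a rule of size: at least 4 times higher with at least 20 UMIs, or at least 4 times lower where at least 20 UMIs were expected. Of 395 genes, 23 were higher (5.82%) and 130 lower (32.9%). The members had a median of 635 UMIs and these clear 3 cells 5279, so the counts are not at like depth. Over all 54 cells, 150 genes were lower than in clear 3, and 39 with both sides limited to cells below 1500 UMIs. Genes higher numbered 33 in both cases. The limited members hold 33524 of the 43659 UMIs. The part of depth was not tested. In the epididymal comparison the highest ratios were those of *Ramp3* (53.2), *Lcn5* (8.67), *Thbs1* (6.70) and *Emp1* (6.14). Each of these lay in a part of the subcluster. *Ramp3* (chr11:6658506-6677478), a partner of calcitonin receptors, had 21 UMIs, all in 2 corpus cells, and *Lcn5*, an epididymal retinoid carrier, had 28 UMIs in 3 cells. *Thbs1*, the matrix glycoprotein thrombospondin 1, and *Emp1*, an epithelial membrane protein, had 36 of 38 and 26 of 26 epididymal UMIs in Cauda.

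The next ratios were those of *H2-D1* (5.53, 5.03 to 6.08), *Hspa5*, the chaperone BiP of the endoplasmic reticulum (5.14, 4.37 to 6.02), *H2-K1* (4.98, 4.42 to 5.61), *Gm933* (4.96), *Tmed7*, a cargo receptor of early secretory vesicles (4.86), *Ctsl*, the lysosomal protease cathepsin L (4.76, 4.04 to 5.58), *Crim1* (4.64) and *Os9*, a lectin of endoplasmic reticulum quality control (4.64). *Hspa5* had 16, 89, 79 and 55 UMIs from Caput to Vas and *Ctsl* 20, 80, 80 and 61, in 32 and 30 of the 41 epididymal members. *Gm933*, *Tmed7*, *Crim1* and *Os9* were found in 15 to 21 of them, with 56 of the 66 UMIs of *Gm933* in Corpus and 29 of the 40 of *Crim1* in Cauda. At the other end, *Tmsb4x*, the actin-sequestering thymosin beta 4, stood at 294 UPM against 6117 (ratio 0.0480, 0.0230 to 0.0884). *Gpx4*, a glutathione peroxidase, had 2 UMIs in the epididymal members where clear 3 stood at 1416 UPM, *Srp14* had 1 where clear 3 stood at 1279 UPM, and *Atp5l*, a subunit of mitochondrial ATP synthase, had 0 where clear 3 stood at 1109 UPM.

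The ratios differed by the kind of protein. Of 130 tested genes whose product is made on the endoplasmic reticulum (secreted, membrane, lysosomal or resident proteins), 125 were above clear 3, 19 by at least 4 times and 1 below by as much, with a median log2 ratio of 1.41. Of 75 ribosomal protein genes 0 were above, 65 were at least 4 times lower, and the median was -2.89. These ratios are not at like depth either. Among epididymal cells below 1500 UMIs the ribosomal share was 2.64% in the members and 7.90% in clear 3. Of 30 genes for mitochondrial proteins 1 was above and 20 were at least 4 times lower (median -2.71). The 148 other genes had 52 above and a median of -0.78, 12 genes could not be assigned, and all 395 genes had a median of -0.26. Since a UPM is a share of all UMIs, lower shares of some genes raise those of the rest, and the values show the kinds relative to each other. Over all 54 cells the medians were 1.34, -2.60, -2.38 and -0.67, and -0.18 for all genes. The kinds were assigned by hand, after the values were known, and carry no test.

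The same ordering was seen in another low-UMI population. Over 383 genes, the log2 ratios of the epididymal members to clear 3 and those of the low-UMI basal cells to the main basal cells, which share no cells, had Pearson r = 0.895 and Spearman rho = 0.872 across genes. Of the 23 genes at least 4 times higher in the former, 19 were compared, and 19 of these had a ratio above 1 in the latter. Of 130 at least 4 times lower, 128 had a ratio below 1. A ratio just above 1 counts here, as for *Ramp3* (log2 ratio 0.0667 in the basal pair). The shares above and below 1 over all 383 genes are not given, so these counts are not read as a result. For the first cluster of muscle cells against the second, both mostly from the vas deferens (230 of 262 and 207 of 240 cells), r was 0.886 over 348 genes. The median depth was 1080.5 UMIs in the first muscle cluster and 5423.5 in the second, so that in each of these pairs the first population is the shallower one. The part of depth in the likeness was not tested. The authors describe the splits of the basal and of the muscle cells by ribosomal protein genes. For the muscle subclusters they report no substantial difference in UMI coverage, with values not shown, which differs from the medians given here. These genes are among those compared, so the likeness in them is not independent of how the clusters were drawn. No correlation without them is given here.

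**Figure D5:**
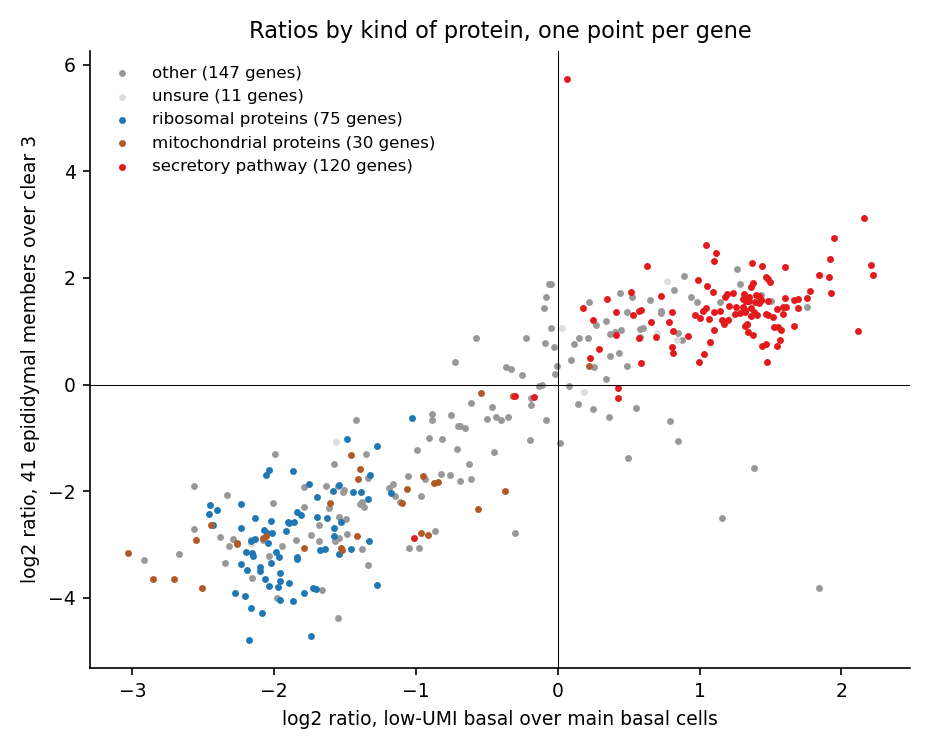
Log2 ratio of the 41 epididymal members to clear 3 (vertical axis) against the log2 ratio of low-UMI basal cells to main basal cells (horizontal axis), 1 point per gene for 383 genes, colored by kind of protein. Ribosomal and mitochondrial genes lie at the lower left and genes of the secretory pathway at the upper right, and the point at 5.73 on the vertical axis is *Ramp3*.

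The vas members were compared with the 43 low-UMI basal cells of the same library to ask how far they differ from annotated basal cells. Of 58 genes 0 (0%) were at least 4 times higher and 1 (1.72%) was at least 4 times lower, and the median log2 ratio was 0.07. The lower gene was *Tm4sf1*, a tetraspanin-like surface protein, with 8 UMIs (ratio 0.227, 0.0960 to 0.459). *Krt14* stood at 2389 UPM in the vas members and 2205 UPM in these basal cells (ratio 1.08, 0.651 to 1.74), *Lcn2* at 4779 and 4489 UPM (1.06, 0.751 to 1.48), *Ly6d*, a surface protein of stratified epithelia, at 2597 and 3241 UPM (0.801, 0.499 to 1.24), and *Adm*, the vasodilator peptide adrenomedullin, at 2805 and 3135 UPM (0.895, 0.566 to 1.37). For these 4 genes the interval of the ratio covers 1, and it does not show that the levels are the same.

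Some basal genes were lower in the vas members. *Apoe* (chr7:19696244-19701310), the apolipoprotein that basal cells express in abundance, had 157 UMIs, at 16310 UPM against 46115 UPM (ratio 0.354, 0.298 to 0.417), and *F3*, tissue factor, stood at 2182 against 4755 UPM (0.459, 0.277 to 0.723). The 20 basal markers together stood at 0.682 of the level in the vas low-UMI basal cells (0.581 to 0.797), and of the 5 tested, 0 were called in either direction. Ribosomal protein genes were at 0.525 of their share there. Against the other side, *Clca2*, of the calcium-activated chloride channel regulator family, was 2.47 times higher (1.52 to 3.96).

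Against clear 3 of the vas deferens, 28 of 101 genes were at least 4 times higher in the vas members (27.7%) and 31 at least 4 times lower (30.7%). *Lcn2* (95.7-fold), *Mia* (59.5-fold), *Ly6d* (52.0-fold) and *Clca2* (50.2-fold) led the first, and *Atp6v1g3*, with 0 UMIs against 497, and *Cd24a*, with 2 against 496, led the second. Against the epididymal members of the subcluster, 20 of 68 genes were higher (29.4%) and 9 lower (13.2%). *Apoe* was 111 times higher (46.6 to 347) and *Mia* 57.7 times (18.6 to 290). *Ly6d* and *Hes1*, a transcriptional repressor downstream of Notch, had 25 and 24 UMIs in the vas members and 0 in the epididymal members, at least 29.5-fold and 28.3-fold higher with the zeros raised to 3 UMIs. *Defb1*, a secreted beta-defensin, was at 0 UMIs in the vas members and 105 in the epididymal members.

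Over all 54 cells, the comparisons mix both kinds of member. Against clear 3, 33 of 516 genes were at least 4 times higher (6.40%) and 150 at least 4 times lower (29.1%). The 12 highest were *Ly6d*, *Mia*, *Lcn2*, *Krt14*, *Ramp3*, *Cp*, *Ctgf*, *Apoe*, *Igfbp7*, *Thbs1*, *Rnf121* and *Prnp*, and *Ly6d*, *Mia*, *Lcn2*, *Krt14*, *Ctgf*, *Apoe* and *Igfbp7* had most of their UMIs in the vas members. The 12 lowest were *Gpx4*, *Chchd10*, *Srp14*, *Atp5l*, *Uqcrq*, *Tceb2*, *Atp5e*, *Gabarap*, *Pfdn5*, *Btf3*, *Ndufa6* and *Ndufa2*, with 0 to 4 UMIs each where clear 3 stood at 768 to 1390 UPM, and *Chchd10*, *Atp5l*, *Uqcrq*, *Atp5e*, *Ndufa6* and *Ndufa2* encode mitochondrial proteins. Of the 33, 11 were also called in the epididymal members alone, which is 33.3% of the pooled list and 47.8% of the epididymal one. The lower genes depended less on the library, with 118 shared (78.7% and 90.8%). The basal list showed the same dependence, at 4.16 times clear 3 over all 54 cells (3.68 to 4.69), 2.17 times in the epididymal members (1.80 to 2.60) and 11.5 times in the vas members (9.41 to 13.9). Of the 20 basal genes 4 were tested in the pooled comparison and 3 were called higher, and in the epididymal one 1 was tested and 0 were called.

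Within the epididymis the basal list was uneven as well. It stood at 1635 UPM in Caput, 2161 in Corpus and 6424 in Cauda, against 1186, 1305 and 2090 in clear 3, and in Cauda 73 of its 87 UMIs were of *Cldn4*, a tight junction claudin that clear 3 also expresses (1185 UPM). *Krt5*, *Krt15*, *Krt17* and *Trp63* had 0 UMIs in the epididymal members.

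Against the low-UMI basal cells, 62 of 462 genes were at least 4 times higher in the 54 cells (13.4%) and 55 at least 4 times lower (11.9%). For the epididymal members and the epididymal low-UMI basal cells the counts were 71 (19.3%) and 82 (22.3%) of 367. The highest were *Gm933*, *Il13ra2*, *Scg5*, *Napsa*, *Slco1a5*, *Rnase1*, *Vsig1*, *Slc26a3*, *Pla2r1*, *Muc20*, *Alcam* and *Edn3*, of which *Alcam* alone had a UMI in a vas member. The 12 lowest over all 54 cells were *Slpi*, *Defb20*, *Apoe*, *Ptgs2*, *F3*, *Gpx5*, *Plaur*, *Fst*, *Spag11b*, *Tpm1*, *Ceacam10* and *Sprr1a*. The lowest in the epididymal members were *Apoe* (147 against 84451 UPM), *Lcn2* (235 against 11229 UPM), *Fst*, the activin antagonist follistatin (0 UMIs), and *Igfbp7* (206 against 6479 UPM). *Defb20*, *Gpx5* and *Spag11b*, products of principal cells, had 0 UMIs in the 54 cells and stood at 805 to 1501 UPM in the low-UMI basal cells. Caput gave 2447 of the 43659 UMIs of the members and 118718 of the 339088 of the low-UMI basal cells. Region and population therefore cannot be told apart in these pooled values.

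Against clear 2, 68 of 503 genes were at least 4 times higher (13.5%) and 144 at least 4 times lower (28.6%). *Emp1*, *Mia*, *Ly6d*, *Hes1* and *Krt14* were the highest, and nearly all of their UMIs came from Cauda and Vas, libraries in which clear 2 has 0 cells. Within Caput and Corpus, the libraries of clear 2, 16 of 211 genes were at least 4 times higher in the members (7.58%) and 65 at least 4 times lower (30.8%). There the highest were *Ramp3*, *Crisp1*, *Cd52*, *Slco1a5* and *Ptgds*, and *Krt14*, *Ly6d* and *Hes1* had 0 UMIs in the members. *Iapp*, which encodes the peptide hormone amylin and defines clear 2, was the lowest in both, at 1695 UPM against 47344 UPM over all 54 cells (ratio 0.0358, 0.0281 to 0.0450) and at a ratio of 0.0763 within Caput and Corpus (0.0599 to 0.0958). Its 74 UMIs lay in 8 members, 5 in Caput and 69 in Corpus, with up to 34 in 1 cell, and the Cauda and Vas members had 0.

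Markers of other cell types were counted in the 54 cells for all lists. Of the 18 principal cell genes 10 had UMIs, 176 in all over 24 cells and up to 25 in a cell, at 4407 UPM in the epididymal members (2.25 times clear 3, 1.89 to 2.66) and 2701 UPM in the vas members (0.219 times the vas clear 3 cells, 0.143 to 0.322), while *Gpx5*, *Lcn8*, *Lcn9*, *Cst8*, *Cst11*, *Rnase10*, *Defb43* and *Abcg2* were at 0. Nearly all principal cell UMIs of the vas members, 24 of them, lay in 1 cell. Of 8 stromal genes 2 had UMIs (23 in all, 13 of them in Caput), and of 8 muscle genes 6 (24 in all, 18 of them in the vas members) with *Acta2* and *Myh11* at 0. Of 7 endothelial genes 3 had UMIs (6 in all) with *Cdh5*, *Emcn*, *Kdr* and *Icam2* at 0, and of 9 immune genes 6 (19 in all, in 9 cells and up to 6 in a cell) with *C1qb*, *Tyrobp* and *Fcer1g* at 0. The immune level was 6.49 times that of clear 3 (3.70 to 10.9), and 6.65 times in the epididymal members (3.60 to 11.6). The 8 general epithelial genes stood at 9345 UPM, 1.64 times clear 3 (1.48 to 1.81), and at 1.5 times in the epididymal members (1.33 to 1.69). The part of other cell types' RNA in the values of the 54 cells was not tested.

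A pair of lists for stress and iron handling completes the account. The 23 immediate-early and heat shock genes, which respond to tissue dissociation, stood at 22476, 14409, 21120 and 38230 UPM from Caput to Vas. The epididymal members were 1.23 times clear 3 (1.13 to 1.33), and the vas members 1.22 times the vas low-UMI basal cells (1.08 to 1.37) and 3.55 times the vas clear 3 cells (3.16 to 3.98). Of 15 genes for iron handling and the acute phase, the marker genes *Lcn2* and *Cp* were higher than in clear 3. The ferritin genes *Fth1* (1851 against 7514 UPM) and *Ftl1* (1616 against 8084 UPM) and the metallothionein gene *Mt1* (2821 against 11949 UPM) were lower in the epididymal members than in clear 3. The list as a whole stood at 0.324 of clear 3 (0.295 to 0.355), and at 0.830 of the low-UMI basal cells in the vas deferens (0.694 to 0.987). *C3*, the central complement component, had 18 UMIs, all in vas members.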

How the data were processed

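The 4 libraries were made with 10x 3′ chemistry, 1 per region. The authors aligned reads to mm10 with HISAT2 2.0.4, summed UMIs per gene with ESAT (reads with several possible origins ignored), subtracted ambient RNA with a modified SoupX and clustered the cells. The deposited counts are these corrected UMI counts for 16892 genes, with a table of cells, their libraries and their subclusters. No per-sample column was left unused (0).

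From there, the UMIs of a gene in a group were divided by the group's total (UPM). At 95%, levels have exact Poisson intervals, shares Clopper-Pearson intervals (a share of 0 has the limit that 3 cells would give), and ratios intervals from the exact binomial given both counts. A zero was raised to a floor of 3 UMIs in ratios across genes: this is 68.7 UPM over the 54 cells, 88.1 in the epididymal and 312 in the vas members. The members have 2447 to 18044 UMIs per library, which sets the precision. Genes were tested for size (ratio of 4) where 20 UMIs were observed or expected, and in single-gene ratios counts were left as they were. The rule was tested on simulated data. The genes named are those of the marker lists, the 12 with the largest ratios each way against clear 3 and low-UMI basal cells, 5 each way for clear 2, and the 20 with most UMIs, with the same rule in the comparisons within the epididymis and the vas deferens.

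The members, lists and tests were chosen with earlier results of these data known. The clear and basal sets, the division by library, the V-ATPase sector lists, the MHC list, the kinds of protein and the comparisons restricted to some libraries were chosen after the values were seen. *Malat1* and 3 more nuclear RNAs planned as a list of 4 have no row in the matrix and were not analysed here. A list of basal genes the study names (26 genes) gave 4.26 times clear 3, and lists of genes given for clear 3 and clear 2 (5 genes each) gave 0.524 and 3.00 times clear 3. Doublets were scored against simulated doublets, and the number called was set in advance at 0.8% per 1000 cells of a library. This set 178 of 8880 cells (2.00%), and the scores placed 0 of them in the 54, 17 in clear 3 and 2 in the low-UMI basal cells. They were kept in the main values and left out as an alternative. Of the 8880 barcodes 43 occurred in more than 1 library, 0 of them in the 54 cells. Positions are from the RefSeq annotation of GRCm38. Alternatives changed thresholds, depth limits, weighting, denominators and lists, and left out each library. Software was matplotlib 3.10.9, scikit-learn 1.9.0, pandas 2.3.3, scipy 1.17.1 and numpy 2.4.6 under Python 3.11.15.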

Additional observations from a re-analysis of the deposited data

Results flagged for a closer look

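The log2 ratio of clear-set to basal-set UMIs in the members was 4.72 in Caput, 5.48 in Corpus and 3.59 in Cauda, and -5.60 in Vas. It was singled out because the sign in the vas deferens is opposite to that in every epididymal library. With 1 library per region the difference was not tested. In clear 3 the sign was the same in all 4 libraries, with 3.48 in the vas deferens.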

How the results depend on the processing

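No paired analysis was possible because each region has 1 sample and no result comes from a test. In 58 of 113 recomputed values the change was within the limit set, and in 55 it was larger. The limit was the interval, for counts of genes 1.5-fold, and for depth the standard deviation of the cells. A reversal of direction could be seen only in the isoform and basal ratios, and none of these reversed. A minimum of 1000 UMIs was set on the members alone, and the limit of 1500 UMIs on members and reference alike, so these settings are not alike. The isoform ratio to clear 3 (0.204) was 0.349 below 1500 UMIs, 0.585 for all subunits, 0 in the vas deferens alone and 0.183 to 0.245 with a library left out. The basal ratio to clear 3 (4.16) was 3.32 with at least 1000 UMIs, 5.39 below 1500, 4.73 with libraries weighted equally, 3.62 without ribosomal UMIs in the denominator, 3.41 without the genes the study names, 24.9 for the keratins, 11.5 in the vas deferens alone and 2.17 (without the vas deferens) to 5.76. The basal ratio to low-UMI basal cells (0.280) was 0.223, 0.245, 0.195 and 0.682 with at least 1000 UMIs, without those genes, for the keratins and in the vas deferens alone, and 0.149 to 0.478. With ratios of 2 or 8 and minimums of 10 or 40 UMIs, genes higher than clear 3 (33) numbered 171, 12, 84 and 16 (23 to 36 with a library left out). Genes lower (150) numbered 63 at a ratio of 8, 91 with 40 UMIs, 47 with the whole interval beyond 4, 39 below 1500 UMIs, 31 in the vas deferens alone and 95 to 150. Genes higher than low-UMI basal cells (62) numbered 126 at a ratio of 2, 145 and 22 with 10 and 40 UMIs, 39 below 1500 UMIs, 0 in the vas deferens alone and 28 to 71. Genes lower (55) numbered 149 and 20 at ratios of 2 and 8, 84 and 30 with 10 and 40 UMIs, 13 with the interval beyond 4, 34 below 1500 UMIs, 1 in the vas deferens alone and 30 to 82. Joint detection (2.56%) was 0 with 2 UMIs of each list, 6.25 when thinned to 1000 UMIs and 0 to 4.17 with a library left out. Without thinning, the only member with both lists is a Cauda cell with 1 keratin UMI. Thinning was drawn anew in each setting, so the 0 without the caput came from the draw. The ribosomal share (2.81%) was 2.60 with at least 1000 UMIs and 2.43 to 3.58, and the median depth (698.5) 634 to 786. Of the 16 members with at least 1000 UMIs, 0% were from the caput, 50% from the cauda and 12.5% from the vas deferens, against 11.1, 20.4 and 24.1% of all 54. Except for the vas deferens alone and for joint detection without the caput, where the construction shows it, the cause of these changes was not tested. With 43659 UMIs in all, genes under 3 UMIs cannot be told from absent ones.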

Other observations

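A few genes had their UMIs in few members. *Crisp1*, a sperm-binding protein of principal cells, had 64 UMIs in Corpus and 15 in a single vas member. *Akr1b7*, an aldo-keto reductase of the vas deferens epithelium, had 9 UMIs in the same vas member, which held 24 UMIs of the principal cell genes. *Tpm2*, a tropomyosin, had 9 UMIs in 2 vas members. These values are given without explanation.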
